A study of Mus musculus with 159 samples.

Results

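*Mt1* and *Cryab*, 2 stress-responsive genes, were followed across the segments of 4 mouse livers profiled by GeoMx digital spatial profiling. They are 2 of the 607 genes of the deposited table and were chosen by their difference between MarcoHi and MarcoLo regions in the Des+ segments of the livers labelled treated CCl4. That difference is therefore given as a description with no test. The other segment types, the livers labelled control and the comparison of segment types did not enter the choice, apart from shared Des+ values. In the livers labelled treated CCl4, the other segment types mostly share their regions with those Des+ segments, and are not independent of them. Metallothionein 1 (*Mt1*, gene 17748, chromosome 8, 94178883 to 94180327) and crystallin alpha B (*Cryab*, gene 12955, chromosome 9, 50745951 to 50756636) are given with their RefSeq positions on GRCm38.p6.

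Metallothioneins are small cysteine-rich proteins that bind zinc, copper and cadmium, and *Mt1* is a classic liver gene whose transcription is raised by metals, glucocorticoids and oxidative stress. Crystallin alpha B is a small heat shock protein, an ATP-independent chaperone that holds unfolding proteins in solution and is known to associate with desmin and other intermediate filaments. Desmin is the filament protein by which the Des+ segments were drawn, and it marks the quiescent and activated hepatic stellate cells (HSCs) of rodent liver.

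Sections of formalin-fixed liver were stained for DESMIN, MARCO and IBA1, regions of interest (ROIs) were picked as rich (MarcoHi) or poor (MarcoLo) in MARCO signal, and each ROI was divided by staining into Des+, Marco+IBA+, Marco-IBA+ and Else, the last negative for all of these markers. The mice were wild-type C57BL/6, aged 8 weeks at the start. The study used both sexes, and its methods do not give the sex of these 4 animals. By the same methods all 4 received intraperitoneal carbon tetrachloride (CCl4) 2 times a week for 6 weeks. MARCO+ bone marrow-derived macrophages or saline were given by tail vein at weeks 3 and 5. The deposited labels instead call livers 1 and 3 treated CCl4 with fibrosis, and livers 2 and 4 control and healthy. No label ties a liver to macrophages or saline, so the pairs are named here by their labels alone, and liver, batch and transfer cannot be told apart. Des+ comprised 41 segments, Marco+IBA+ 45, Marco-IBA+ 24 and Else 49. ROIs were placed by hand and a liver is 1 animal, so segments of a liver are not independent and the tests given here were run on means per liver. The alternatives that fit single segments take more from each animal, and their p-values are too small for 4 livers.

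Values are deduplicated probe counts scaled to the upper quartile of the 607 genes (Q3-normalized values), and every value was a whole multiple of a step that belonged to its segment, which gave the counts back. The counts summed to between 75571 and 448875 in Else segments, 3106 and 27341 in Marco+IBA+, 1448 and 16715 in Des+ and 1065 and 4457 in Marco-IBA+. The lowest count was 1 and no value stood at 0. Whether a gene at this floor was detected at all is not known. The table holds genes that the study kept for their HSC expression: 12 of 12 stellate cell markers, 4 of 8 smooth muscle markers, 1 of 13 macrophage markers (*Marco*), 1 of 6 portal fibroblast markers (*Eln*) and 0 of the listed hepatocyte, endothelial, cholangiocyte and lymphocyte markers were measured. The cell types within Else could therefore not be checked. In Des+ against Else, 11 of 12 stellate markers were higher, where 36.6% of all genes were. *Des* itself differed by 0.38 ± 0.17 on the log2 scale (SE, limma, adjusted p = 0.0544), and *Marco* stood 4.54 ± 0.23 higher in Marco+IBA+ than in Else (adjusted p = 2.08e-14, limma).

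Relative to the genes of the table, *Mt1* was strongest in Else. Its Q3-normalized value ranged from 29.7 to 411 in the 49 Else segments (median 80.0), from 13.0 to 209 in the 41 Des+ segments (median 57.4), from 21.5 to 162 in the 45 Marco+IBA+ segments (median 48.4) and from 13.0 to 130 in the 24 Marco-IBA+ segments (median 52.1). These ranges overlapped widely, and those of Des+ and Else also overlapped within each liver. The livers lay far apart as well. *Mt1* rested on a median of 1543 counts in an Else segment, 17 in a Des+ segment, 46 in a Marco+IBA+ segment and 6 in a Marco-IBA+ segment, and 2 of 24 Marco-IBA+ segments stood at the floor. Pooled over segments, *Mt1* took 89.8 per 10000 counts in Else (exact Poisson 95% interval 89.2 to 90.4), 53.5 in Des+ (50.1 to 57.0), 53.4 in Marco+IBA+ (51.4 to 55.5) and 37.4 in Marco-IBA+ (32.1 to 43.2). These intervals cover counting error only. Both the Q3-normalized value and the share of counts are relative to genes kept for their HSC expression. The part of this scaling in the differences between segment types was not tested with genes outside the table.

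**Figure D1:**
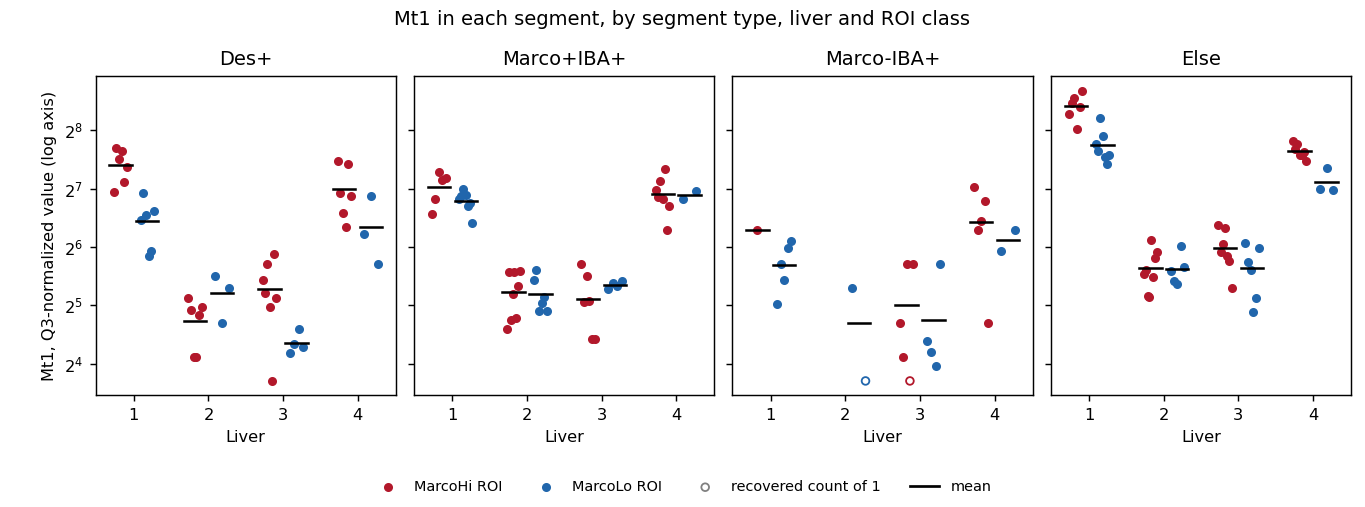
Each point is the Q3-normalized *Mt1* value of 1 segment on a log axis, in a panel per segment type and by liver on the horizontal axis; red points are MarcoHi and blue points MarcoLo ROIs, open points have a recovered count of 1, black bars are means, and points are spread sideways for legibility. Livers 1 and 4 lie above livers 2 and 3 in each panel, with mean log2 values of 8.09 and 7.39 against 5.66 and 5.83 in Else.

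By the means per liver the order was clear. Mean log2 values of *Mt1* in livers 1 to 4 were 8.09, 5.66, 5.83 and 7.39 in Else and 6.93, 5.02, 4.87 and 6.69 in Des+. Else thus exceeded Des+ in 4 of 4 livers. With liver as a block, *Mt1* was lower in Des+ than in Else by a log2 difference of -0.87 ± 0.17 (SE, n = 4 livers; limma with Benjamini-Hochberg adjustment over 607 genes, adjusted p = 9.82e-05), that is 1.82-fold. Of all 607 genes, 64.9% passed the same threshold of 0.05 in this comparison, with a median difference of 0.04, so the call itself is common, and the difference of *Mt1* was the 39th lowest. The Des+ segments that chose the gene are part of the difference over 4 livers, so its call is not independent of the choice. In the livers labelled control alone, which did not enter the choice of the gene, the difference was -0.67 (adjusted p = 0.0143). The share of 64.9% belongs to the fit of 4 livers, and over the alternatives 125 to 469 of the 607 genes were called.

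Macrophage segments were below Else too. *Mt1* was lower in Marco+IBA+ than in Else by -0.66 ± 0.17 (adjusted p = 0.00268; 39.7% of genes called) and in Marco-IBA+ than in Else by -1.24 ± 0.17 (adjusted p = 8.52e-07; 73.1% of genes called). The first of these missed the threshold in the livers labelled control alone (-0.45, adjusted p = 0.118). Marco-IBA+ segments were also lower than Marco+IBA+ segments, by -0.59 ± 0.17 (adjusted p = 0.00628; 45.1% called). Des+ and Marco+IBA+ did not differ beyond their spread, with a difference of -0.21 (95% interval -0.55 to 0.13, adjusted p = 0.298, 52.1% called). Des+ minus Marco-IBA+ was 0.38, with an interval above 0 (0.03 to 0.72). It missed the threshold after adjustment over all genes (limma, adjusted p = 0.0663, 45.1% called). The last comparison kept its direction in all 17 alternatives and passed in 6 of them, among these edgeR at 0.84 (adjusted p = 0.000269). Both comparisons with Des+ include the segments that chose the gene.

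The livers were further apart in *Mt1* than the segment types. Marco+IBA+ segments had mean log2 values of 6.92, 5.25, 5.27 and 6.91 in livers 1 to 4, and Marco-IBA+ segments 6.02, 4.76, 4.92 and 6.30. In each of the 4 segment types, livers 1 and 4 were high and livers 2 and 3 low. These pairs cross the labels, since livers 1 and 4 carry different ones. The fold between the highest and the lowest liver was 5.37 in Else, 4.18 in Des+, 3.18 in Marco+IBA+ and 2.90 in Marco-IBA+. The SD over livers of *Mt1* was the largest of all 607 genes in Des+ (1.08, against a median gene of 0.22) and in Else (1.19, against 0.12). It ranked 2nd in Marco+IBA+ (0.96), after *Marco*, and 5th in Marco-IBA+ (0.77).

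No difference of *Mt1* between the labels passed. The livers labelled treated CCl4 minus those labelled control differed by 0.43 in Else (95% interval -1.52 to 2.39, adjusted p = 0.734; 0% of genes called), by 0.01 in Marco+IBA+ (-1.14 to 1.17, adjusted p = 0.993; 0.659% called) and by -0.06 in Marco-IBA+ (-0.90 to 0.79, adjusted p = 0.989; 0% called). In Des+ the difference was 0.05. Leaving out liver 2 turned the Marco+IBA+ difference to -0.82 (adjusted p = 0.0244) and leaving out liver 4 gave 0.85 (adjusted p = 0.0355), so its sign rested on which liver stayed. The Else difference likewise moved between -0.69 without liver 1 and 1.56 without liver 3, and that in Des+ between -0.98 and 1.08 without the same livers. In Marco-IBA+ it was -0.83 without liver 2 and 0.71 without liver 4. The intervals are wide, and with 2 livers a label the Else interval spans shifts of over 2-fold in either direction. They rest on a variance that limma shrinks towards that of all genes, and are narrower than the *Mt1* livers alone would give.

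*Cryab* was a low signal throughout. Its Q3-normalized value ranged from 3.26 to 34.8 in Des+ (median 8.69), from 3.15 to 9.23 in Else (median 6.21), from 1.45 to 13.0 in Marco+IBA+ (median 6.02) and from 3.72 to 43.5 in Marco-IBA+ (median 13.0). The median recovered count was 86 in Else, 3 in Des+, 4 in Marco+IBA+ and 1 in Marco-IBA+. At the floor of 1 count stood 15 of 24 Marco-IBA+, 11 of 41 Des+, 8 of 45 Marco+IBA+ and 0 of 49 Else segments. The high Marco-IBA+ values are thus mostly single counts in shallow segments, where a count of 1 is scaled to a value of up to 13.0.

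**Figure D2:**
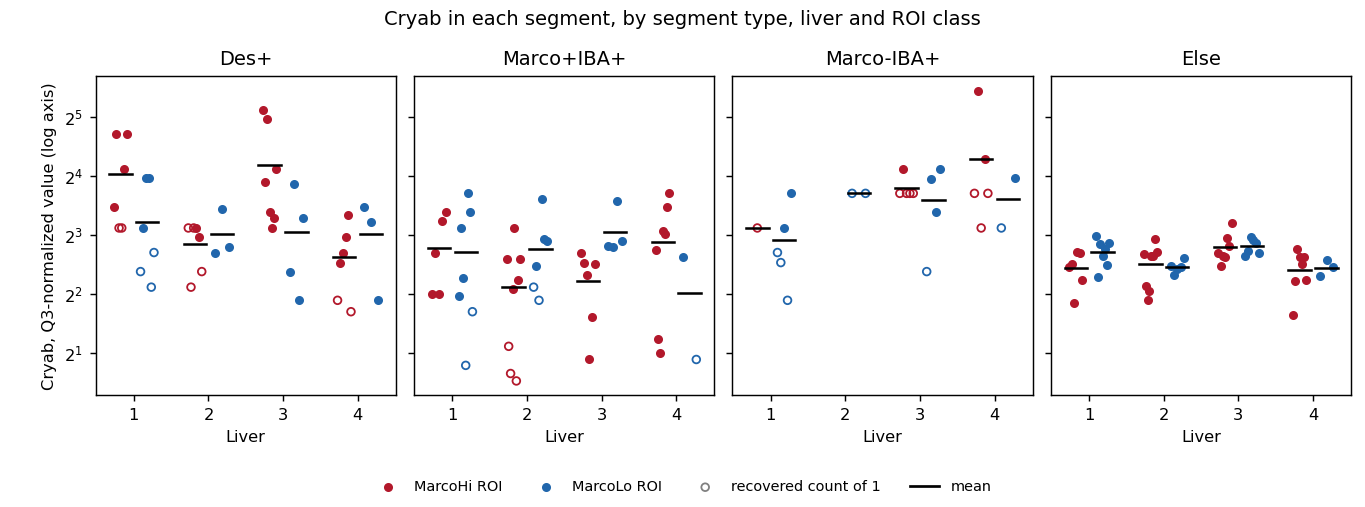
Each point is the Q3-normalized *Cryab* value of 1 segment on a log axis, laid out by segment type, liver and ROI class as for *Mt1*; open points have a recovered count of 1 and black bars are means. The 13 Des+ segments of MarcoHi ROIs in livers 1 and 3 reach 34.8, Else segments stay between 3.15 and 9.23, and 15 of 24 Marco-IBA+ points are open.

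The level of *Cryab* in Des+ is partly set by the choice of the gene, since the MarcoHi Des+ segments of livers 1 and 3 enter it. Mean log2 values in livers 1 to 4 were 3.74, 3.12, 3.74 and 3.02 in Des+ and 2.80, 2.72, 2.99 and 2.68 in Else. Each liver had the higher mean in Des+. In the livers labelled control, which did not enter the choice, Des+ minus Else and Des+ minus Marco+IBA+ were both 0.37 and did not pass (limma, adjusted p = 0.138 and 0.181). Over all 4 livers, the selecting segments included, Des+ minus Else was 0.61 ± 0.18 (SE, n = 4 livers, limma adjusted p = 0.00578, 1.52-fold), and Des+ minus Marco+IBA+ was 0.60 ± 0.18 (adjusted p = 0.00758). These calls are not independent of the choice. Of all genes 64.9% and 52.1% were called in the 2 comparisons, and *Cryab* had the 163rd and 146th highest difference. Pooled counts, with the same segments in them, gave 6.98 per 10000 in Des+ (95% Poisson interval 5.79 to 8.33), 4.16 in Else (4.04 to 4.28) and 4.18 in Marco+IBA+ (3.63 to 4.80).

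Both calls were also lost under other settings. With values from a count of 1 set to 0, the difference to Else was 0.34 (adjusted p = 0.652) and that to Marco+IBA+ 0.45 (adjusted p = 0.623). After re-centring each segment on its median gene they were 0.30 and 0.46, and without liver 3 the difference to Marco+IBA+ was 0.51 (adjusted p = 0.0823). No difference of *Cryab* passed between Marco+IBA+ and Else (0.00, 95% interval -0.37 to 0.38, adjusted p = 0.988). Marco-IBA+ segments were higher than Else by 0.91 ± 0.18 (adjusted p = 0.00012; 73.1% of genes called, median gene 0.35) and than Marco+IBA+ by 0.91 ± 0.18 (adjusted p = 0.00043; 45.1% called, median gene 0.23). With counts of 1 set to 0, these turned to -0.92 (adjusted p = 0.130) and -0.81 (adjusted p = 0.204), so no order of Marco-IBA+ can be read for this gene. Des+ minus Marco-IBA+ was -0.31 (-0.68 to 0.07, adjusted p = 0.167), and 1.26 with counts of 1 set to 0.

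Between livers the SD of *Cryab* was 0.14 in Else and 0.12 in Marco+IBA+, near the median gene at 0.12 and 0.17. It was 0.39 in Des+, the 36th highest of 607, and 0.37 in Marco-IBA+, where the median gene was at 0.33 and most segments stood at the floor. In Des+ livers 1 and 3, which share the label treated CCl4, stood at 3.74 and 3.74 and livers 2 and 4 at 3.12 and 3.02. The difference of 0.68 was the 6th highest of 607 and is given with no test, since the segments that chose the gene are part of it. In the segment types that did not enter the choice, the label difference of *Cryab* was 0.20 in Else (95% interval -0.03 to 0.43, adjusted p = 0.239), 0.21 in Marco+IBA+ (adjusted p = 0.695) and -0.43 in Marco-IBA+ (adjusted p = 0.989).

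The difference by which the genes were selected stood as follows. In Des+ segments of liver 1, *Mt1* ranged from 123 to 209 in 6 MarcoHi ROIs (median 174) and from 57.4 to 122 in 6 MarcoLo ROIs (median 91.3). These ranges did not overlap. In liver 3 it ranged from 13.0 to 58.7 in 7 MarcoHi ROIs (median 37.2) and was between 18.3 and 24.2 in 4 MarcoLo ROIs (median 19.9), with overlap through 1 low MarcoHi segment. MarcoHi minus MarcoLo was 0.96 and 0.88 on the log2 scale in livers 1 and 3, with a mean of 0.92, the 11th highest of 607 genes, among which the median was 0.09.

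*Cryab* in Des+ of liver 1 ranged from 8.69 to 26.1 in MarcoHi ROIs (median 14.3) and from 4.35 to 15.6 in MarcoLo ROIs (median 7.60). In liver 3 it ranged from 8.69 to 34.8 in MarcoHi (median 14.9) and had 3.72, 5.21, 9.78 and 14.5 in the 4 MarcoLo ROIs. The ranges overlapped in both livers. The differences were 0.75 and 1.04, with a mean of 0.90, the 14th highest. They rested on 20 against 14 counts in liver 1 and 25 against 12 in liver 3. MarcoHi segments were the shallower ones here, with a median of 2733 counts over all genes against 3400 in MarcoLo, and the part of depth in the difference was not tested. Over all livers, the summed level of the 12 stellate markers ranged from 127 to 843 in MarcoHi and from 551 to 1063 in MarcoLo Des+ segments, and that of the 4 smooth muscle markers from 32.6 to 172 and from 23.2 to 78.2. Their part in the differences of both genes was not tested either.

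In the livers labelled control, whose Des+ segments did not enter the choice, no difference between ROI classes passed the test for either gene. *Mt1* ranged from 17.4 to 34.8 in 6 MarcoHi ROIs of liver 2 against 26.1, 39.1 and 45.6 in 3 MarcoLo ROIs, and from 80.8 to 179 in 6 MarcoHi ROIs of liver 4 against 52.1, 74.5 and 117 in 3 MarcoLo ROIs. The ranges overlapped and the direction was opposite, at -0.46 in liver 2 and 0.65 in liver 4. The mean of 0.09 (95% interval -0.52 to 0.70) had an adjusted p of 0.997 (limma; 0% of genes called, 64 at an unadjusted p under 0.05). This interval rests on a variance shrunk towards that of all genes, and is narrower than livers 2 and 4 alone would give. *Cryab* was -0.14 in liver 2 and -0.33 in liver 4, with a mean of -0.24 (-0.82 to 0.35, adjusted p = 0.843).

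Else segments were compared in the same way. In livers 1 and 3 they were mostly cut from the ROIs whose Des+ segments chose the gene. Their difference there is therefore not independent of the choice. *Mt1* was higher in MarcoHi than in MarcoLo ROIs of Else, by 0.38 ± 0.08 over all 4 livers (SE, limma adjusted p = 0.0293; 5.11% of genes called), and this was the highest difference of the 607 genes. By liver the difference was 0.67, 0.00, 0.34 and 0.53 for livers 1 to 4. The SE rests on a variance that limma shrinks towards that of all genes, and is smaller than these 4 livers alone would give. In liver 1 *Mt1* ranged from 260 to 411 in 6 MarcoHi ROIs (median 345) and from 171 to 296 in 7 MarcoLo ROIs (median 199), which overlapped. In liver 4 the 7 MarcoHi ROIs lay between 178 and 227 (median 198), above the 3 MarcoLo ROIs at 127, 127 and 163. Liver 2 had medians of 47.5 and 48.2, and liver 3 of 60.6 and 51.3, with overlapping ranges.

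The call for *Mt1* in Else was narrow. In the livers labelled treated CCl4 it was 0.50 ± 0.11 (adjusted p = 0.0493; 3.62% of genes called), in those labelled control 0.27 (95% interval 0.01 to 0.52, adjusted p = 0.455; 0.329% called), and no difference between the pairs passed (0.24, adjusted p = 0.991). The SE and the interval rest on the same shrunken variance, and are narrower than the livers alone would give. The direction was kept in all 16 alternatives for all 4 livers, but the threshold in only 7 of them. In the livers labelled treated CCl4 the call was lost without liver 1 (0.34, adjusted p = 0.663). Over all 4 livers it was lost without liver 1 (0.30, adjusted p = 0.123) and without liver 4 (0.25, adjusted p = 0.0708), in edgeR (0.34, adjusted p = 0.107) and in DESeq2 (0.33, adjusted p = 0.842).

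In the same Else segments 5 of 12 stellate markers were lower in MarcoHi ROIs, where 3.29% of all genes were. Among them was *Dcn* (decorin) at -0.56 ± 0.04 (adjusted p = 0.000163). The summed stellate markers ranged from 78.7 to 142 in MarcoHi and from 90.5 to 192 in MarcoLo Else segments, and *Marco* was at 0.34 (adjusted p = 0.221). *Gstm2*, a glutathione S-transferase and the largest decrease among the stress genes, was at -1.04 ± 0.11 (adjusted p = 0.000931). The part of these shifts in the *Mt1* difference was not tested. More cells of a type and more RNA per cell cannot be told apart in such segments.

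No such rise of *Cryab* in Else passed. Its MarcoHi minus MarcoLo difference was -0.24, 0.04, -0.01 and -0.03 in livers 1 to 4. The mean was -0.06 (95% interval -0.16 to 0.04, adjusted p = 0.551), -0.12 in the livers labelled treated CCl4 (-0.27 to 0.02, adjusted p = 0.401) and 0.00 in those labelled control (-0.14 to 0.15, adjusted p = 0.999). With a median of 86 counts a segment, these intervals are the narrowest for the gene.

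In macrophage segments no difference between ROI classes passed for either gene. In Marco+IBA+ *Mt1* was 0.24, 0.03, -0.24 and 0.01 in livers 1 to 4, with a mean of 0.01 (95% interval -0.31 to 0.33, adjusted p = 0.977; 0.494% of genes called). *Cryab* was 0.06, -0.55, -0.72 and 0.74, with a mean of -0.12 (-0.67 to 0.44, adjusted p = 0.865). The *Mt1* difference in Else exceeded that in Marco+IBA+ by 0.37, but this did not pass (95% interval 0.05 to 0.70, adjusted p = 0.492; 0% of genes called). Marco-IBA+ segments, with no MarcoHi segment in liver 2 and 1 in liver 1, gave 0.38 for *Mt1* (-0.30 to 1.06, adjusted p = 0.581) and 0.34 for *Cryab* (-0.35 to 1.03, adjusted p = 0.614), while the median gene was at 0.26 and 0% of genes were called.

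**Figure D3:**
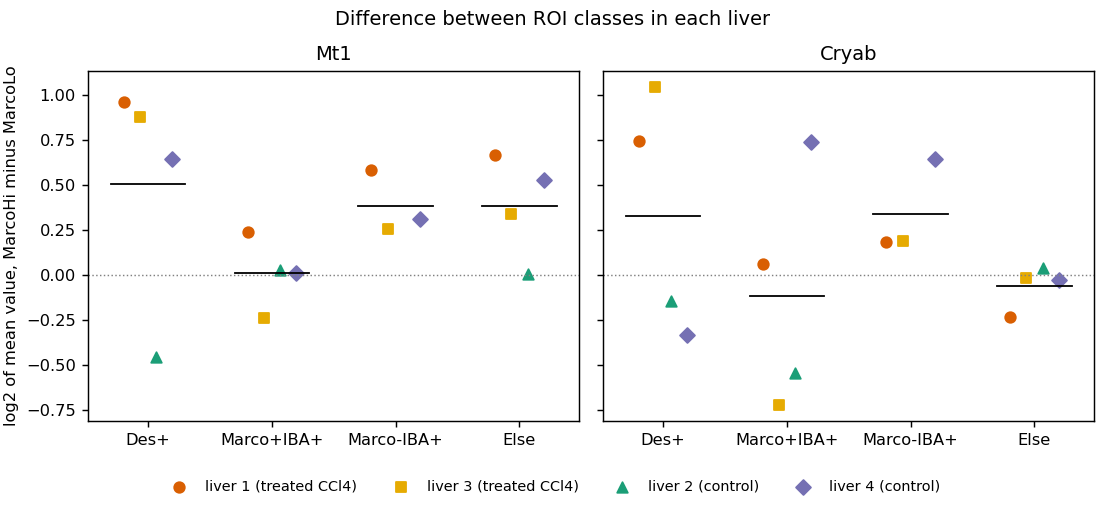
Each marker is the log2 difference of the mean Q3-normalized value between MarcoHi and MarcoLo ROIs in 1 liver, by segment type, for *Mt1* (left) and *Cryab* (right); black bars are means over livers and the dotted line is no difference. *Mt1* is above 0 in Else in livers 1, 3 and 4 and at 0.00 in liver 2, whereas *Cryab* in Else lies between -0.24 and 0.04 while in Des+ it is 0.75 and 1.04 in livers 1 and 3 and -0.14 and -0.33 in livers 2 and 4.

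Des+ and Else segments cut from the same ROI were then set side by side in the 41 ROIs that have both. *Mt1* in Des+ was lower than in its own Else segment in 39 of 41 ROIs, at a median ratio of 0.512 (range 0.226 to 1.08). The ratio had medians of 0.411, 0.630, 0.496 and 0.595 in livers 1 to 4, while the Else level itself spanned a 5.37-fold range over livers. *Cryab* was lower in Des+ in 9 of 41 ROIs, with a median ratio of 1.38 (0.477 to 5.50). In MarcoHi ROIs of livers 1 and 3 its median ratio was 2.55 and 1.88, against 1.14 and 1.17 in their MarcoLo ROIs, which are the segments that chose the gene. In livers 2 and 4 it was 1.30 and 1.21 in MarcoHi against 1.29 and 1.56 in MarcoLo ROIs.

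Across these 41 ROIs *Mt1* in Des+ rose and fell with *Mt1* in Else. Pearson's r of the log2 values was 0.90 with nothing taken out, the highest of 607 genes. This includes the differences between livers and between ROI classes, among them the Des+ difference that chose the gene. With the means of liver and ROI class taken out it was 0.34, the 32nd highest, where the median gene was at 0.04 and the middle 50 percent of genes lay between -0.09 and 0.17. Within livers 1 to 4 r was 0.50, 0.75, 0.02 and 0.52. Marco+IBA+ and Else segments of 43 ROIs gave 0.56, the 4th highest, whereas Des+ and Marco+IBA+ segments of 37 ROIs gave 0.11 and Marco-IBA+ and Else segments of 24 ROIs gave -0.00, the 317th. The points of a liver share an animal, a section and its normalization, and the segments of an ROI share their borders, so these values are descriptions.

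For *Cryab* the same measure was 0.12, the 207th highest, and within livers 1 to 4 it was 0.28, -0.11, -0.26 and 0.48. A Des+ segment held a median of 3 *Cryab* counts, and the part of counting error in these correlations was not tested.

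**Figure D4:**
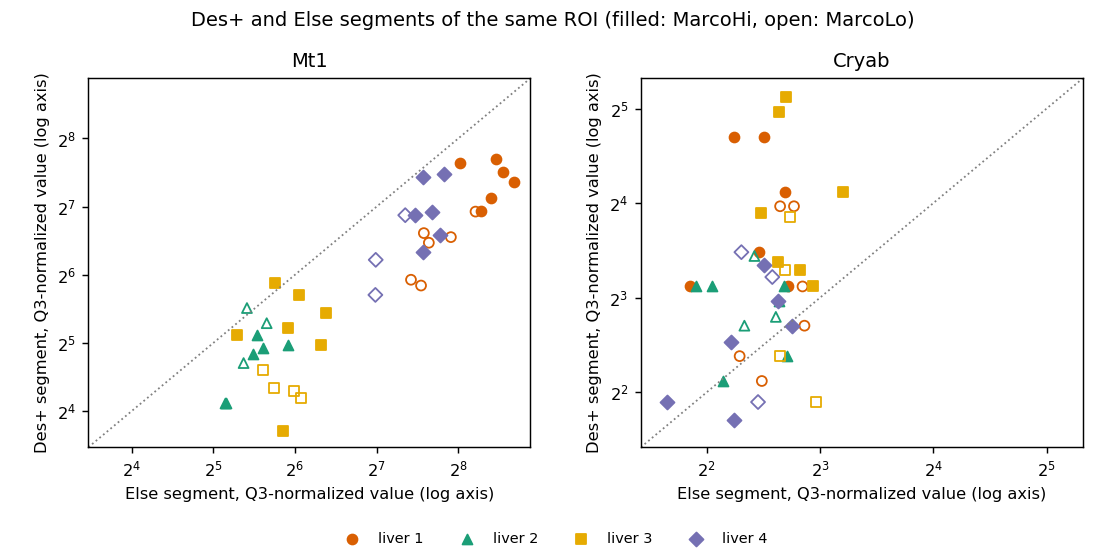
Each marker is 1 of 41 ROIs, with the Q3-normalized value of its Else segment on the horizontal and of its Des+ segment on the vertical log axis, for *Mt1* (left) and *Cryab* (right); filled markers are MarcoHi and open markers MarcoLo ROIs, and the dotted line marks equal values. *Mt1* lies below the line in 39 of 41 ROIs and follows the livers along it, whereas *Cryab* spreads upward in Des+ over a narrow range of Else values.

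With the ROIs matched, the MarcoHi minus MarcoLo difference of *Mt1* in livers 1 to 4 was 0.96, -0.46, 0.88 and 0.65 in Des+ and 0.67, 0.01, 0.11 and 0.53 in Else. Des+ and Else moved together in livers 1 and 4, within 0.29 and 0.11 of each other. In liver 3 the Des+ difference exceeded that in Else by 0.77, and in liver 2 it was below it by -0.47. For *Cryab* Des+ exceeded Else by 0.94 in liver 1 and 1.02 in liver 3, and was at -0.09 and -0.27 in livers 2 and 4. These comparisons use the Des+ difference that chose the genes, and are given with no test.

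The other stress genes measured were mostly lower in Des+ than in Else, the endoplasmic reticulum (ER) genes among them. Their values too are relative to genes kept for HSC expression, and the part of this scaling was not tested. *Mt1* was the only one of 4 metallothioneins on the list that was measured, and *Cryab* the only one of 10 small heat shock proteins. Of the 17 other stress genes measured, 12 were lower and 3 higher in Des+ than in Else, with a median difference of -0.90 where all genes had 0.04. Of all 607 genes 28.3% were lower and 36.6% higher in this comparison. All 6 ER genes were lower, from *Pdia4*, a protein disulfide isomerase, at -1.18 ± 0.19 (adjusted p = 1.33e-05) to *Canx* (calnexin) at -0.74 ± 0.14 (adjusted p = 5.78e-05). *Xbp1*, a transcription factor of the unfolded protein response, was at -1.14 ± 0.16 (adjusted p = 1.47e-06).

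Of the 4 other chaperones, *Hspa5* (the ER Hsp70), *Hsp90b1* and *Dnajc3* were lower by -1.19, -1.03 and -0.95. *Serpinh1*, the collagen chaperone Hsp47, was higher by 1.06 ± 0.15 (adjusted p = 1.48e-06). In the redox list *Sod3*, the extracellular superoxide dismutase, was higher by 2.09 ± 0.15 and *Gpx3* by 0.62 ± 0.22, *Prdx2* was lower by -0.59 ± 0.16, and *Gstm2* was at -0.01 (adjusted p = 0.970). Of the immediate early genes *Zfp36* and *Jun* were lower, at -1.15 and -0.56, and *Egr1* was at 0.11 (adjusted p = 0.627). The filament genes that *Cryab* is known to associate with were mixed, with *Vim* (vimentin) higher (adjusted p = 3.96e-08), *Lmna* lower by -0.55 ± 0.16 and *Des* as given above.

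**Figure D5:**
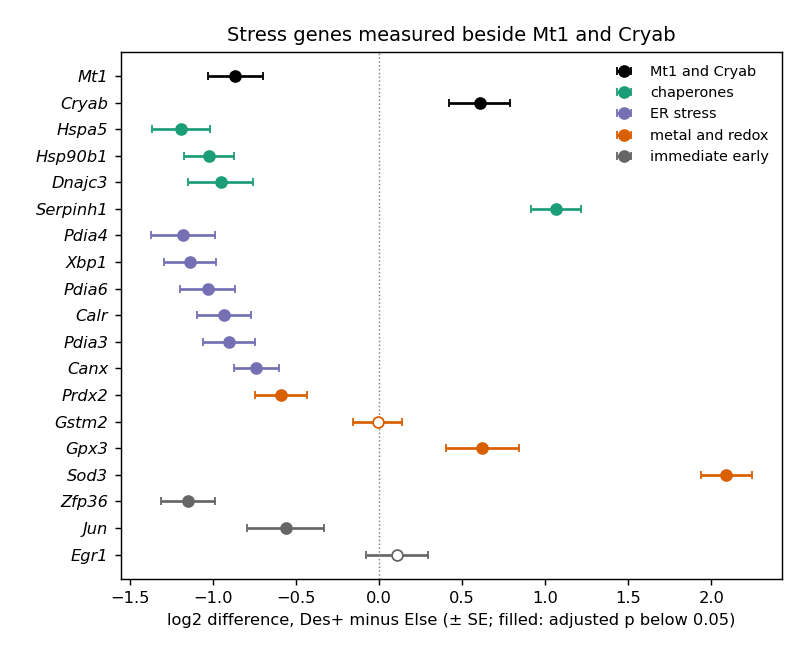
Points are log2 differences between Des+ and Else segments from limma with liver as a block, error bars are SE, and filled points have an adjusted p below 0.05; rows are *Mt1*, *Cryab* and 17 other stress genes coloured by list. *Mt1* at -0.87 lies among the ER genes at -1.18 to -0.74, and *Cryab*, at 0.61 with the segments that chose it included, lies on the side of *Serpinh1*, *Gpx3* and *Sod3*.

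Between ROI classes of Else, 2 of these 17 genes passed in the direction of *Mt1*, namely *Calr* (calreticulin) at 0.18 ± 0.04 (adjusted p = 0.036) and *Xbp1* at 0.17 ± 0.04 (adjusted p = 0.0484), and *Gstm2* passed in the other, where 1.81% of all genes were called higher and 3.29% lower. Their median was 0.08, against -0.01 for all genes. In Marco+IBA+ and in Des+ of the livers labelled control 0 of the 17 passed in limma, where 0.494% and 0% of all genes were called.

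Over the 31 means of liver, segment type and ROI class, the genes most like *Mt1* were *Eif4a2* (Pearson's r 0.64), *Xbp1* (0.64), *Cd302* (0.60), *H6pd* (0.59) and *C4b* (0.58), while the median gene was at -0.16. Their Des+ minus Else differences lay between -1.20 (*C4b*) and -0.50 (*Eif4a2*). Those most like *Cryab* were *Dkk3* (0.81), *Tnfrsf11b* (0.80), *Selenom* (0.79), *Ccn2* (0.76) and *Smtn* (0.75), with the median gene at 0.23. Theirs lay between 0.28 (*Selenom*) and 0.84 (*Ccn2*). The Des+ and Else means are among those by which these genes were picked, so their direction is part of the choice and is given with no test. *Smtn* is a smooth muscle marker, and all 4 measured markers of that list were higher in Des+ than in Else, with a median of 0.58. Of all genes 36.6% were higher there. Their part in the *Cryab* difference was not tested. The means share livers and depth, so these are descriptions. *Mt1* and *Cryab* were not alike, at r -0.23.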

How the data were processed

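GeoMx probe libraries of 159 segments were demultiplexed with bcl2fastq (2.20.0.422, per the submitters' processing notes, which name mm10), deduplicated by molecular identifiers, filtered and Q3-normalized by the authors. The deposited signal values therefore are Q3-normalized counts of 607 genes kept for HSC expression. The upper quartile was 26.1 in every segment. All 96513 values were whole multiples of a segment's step (the largest that fits, relative tolerance 1e-06), from which counts were recovered. Negative probes were not analysed here.

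Groups came from the labels. Values were averaged per liver, segment type and ROI class, and log2 was taken after a pseudocount of 1. Segment types (means of both classes per liver, 9 residual degrees of freedom) and ROI classes (8 means, 2 residual degrees of freedom) were compared with limma (3.58.1), liver as a block, and labels without a block. p was adjusted by Benjamini-Hochberg over 607 genes, with a threshold of 0.05. Liver 2 entered Marco-IBA+ by MarcoLo alone. Log2 changes understate those of low genes. The study's methods name a linear mixed model without its random terms. A mixed model fitted to each segment, with liver as the random intercept (a form chosen here), was run as an alternative with lme4 (1.1.37) and lmerTest (3.1.3), as were edgeR (4.0.16) and DESeq2 (1.42.0) on summed recovered counts, pseudocounts of 0 and 5, leaving out genes with a mean under 10 (444 left), means of log2 values, medians, re-centring, no block, single segments with ROI as a block, the ROI whose library name has no class left out, and each liver left out. Setting counts of 1 to 0, the livers labelled control alone, the comparison of Else with Marco+IBA+ differences, and the ROI correlations other than those of Des+ with Else over several livers were added after seeing the data. Named genes are the members, the measured genes of the stress and marker lists, and the 5 most correlated with each member. Members and lists were chosen with earlier results of these data known. The fits were tested on simulated data. Tests ran in R 4.3.3. Tables were made in Python 3.11.15 (pandas 2.3.3, numpy 2.4.6) with intervals from scipy 1.17.1, and figures were drawn by matplotlib 3.10.9.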

Additional observations from a re-analysis of the deposited data

Results flagged for a closer look

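*Cryab* in Des+ was higher in MarcoHi than in MarcoLo ROIs in both livers labelled treated CCl4 (mean 0.90) and lower in both livers labelled control (mean -0.24), a difference of 1.13 on the log2 scale. The gene was chosen by the first of these values, and the difference was not tested.

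Of 56 groups of 4 to 10 values examined for a sample that stands apart, 3 had one, where chance gives about 1 in 20. *Mt1* in the Des+ segment of 1 MarcoHi ROI of liver 3 was 13.0, against a median of 37.2 and a highest value of 58.7 in the 7 segments of that group. It rested on 3 counts, and its Else segment was at 57.8. *Cryab* in 1 MarcoLo Marco+IBA+ segment of liver 3 was 11.9, against 6.95 for the lowest and a median of 7.24 in 4 segments. *Cryab* in 1 MarcoHi Marco-IBA+ segment of liver 3 was 17.4 where the other 4 stood at 13.0, which are counts of 2 and 1.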

How the results depend on the processing

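For *Mt1*, Des+ minus Else stayed past the threshold in all 17 alternatives, between -1.20 and -0.67, and Marco-IBA+ minus Else in all 17, between -1.79 and -0.97. With ROI as a replicate block over single segments, Des+ minus Else was -0.92 for *Mt1* and 0.60 for *Cryab*. Marco+IBA+ minus Else lost its call with counts of 1 set to 0 (-0.66, adjusted p = 0.0552) and in the livers labelled control alone (-0.45). *Mt1* in Des+ minus Marco-IBA+ passed with means of log2 values (0.45), medians (0.47), edgeR (0.84), DESeq2 (0.75), the replicate block (0.45) and the linear mixed model (0.52).

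The *Mt1* difference between ROI classes of Else over 4 livers lost its call with a pseudocount of 0 (0.39), medians (0.41), re-centring (0.39), without the ROI of unnamed class (0.37), without a liver block (0.38), in edgeR (0.34) and in DESeq2 (0.33), and ranged from 0.25 to 0.52 as each liver was left out. In the livers labelled treated CCl4 the same settings gave 0.51, 0.51, 0.53, 0.50, 0.50, 0.47 and 0.47, with a range from 0.34 to 0.67. The causes were not tested. The *Mt1* label difference in Marco+IBA+ ranged from -0.82 to 0.85 as each liver was left out.

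*Cryab* in Des+ minus Else lost its call after re-centring (0.30), with counts of 1 set to 0 (0.34) and in the livers labelled control (0.37). Des+ minus Marco+IBA+ lost it with the same settings (0.46, 0.45 and 0.37) and without liver 3, the livers ranging from 0.51 to 0.70. With re-centring the median gene of Des+ minus Else fell by 0.30 on the log2 scale. Marco-IBA+ turned with counts of 1 set to 0, to -0.92 against Else and -0.81 against Marco+IBA+. Des+ minus Marco-IBA+ passed in the livers labelled control (-0.86) and ranged from -0.60 to -0.07 as each liver was left out, passing without liver 1.

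The correlation of Des+ with Else for *Mt1* was 0.58 with liver alone taken out, 0.38 by Spearman, and 0.24 to 0.56 as each liver was left out. The first of these keeps the ROI class difference in Des+ by which the gene was chosen. Genes called ranged from 125 to 469 in Des+ minus Else, 82 to 389 in Marco+IBA+ minus Else, 0 to 78 between ROI classes of Else, 0 to 62 there in the livers labelled treated CCl4 and 0 to 31 in Marco+IBA+. Depth limits *Cryab* outside Else, and 2 livers a label limit every label difference.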
